A study of Mus musculus with 9 samples.

Results

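Genes of the Wnt pathway were described across 3 groups of mouse pancreatic tumor cells. The members were chosen by gene name: every Wnt ligand, Frizzled receptor, Sfrp and Dkk inhibitor in the table, and 15 named genes that act as co-receptors, receptor regulators, signal transducers or nuclear factors. This gave 52 of the 24493 genes: 19 Wnt ligands, 10 Frizzled receptors, 4 co-receptors, 8 secreted inhibitors, 4 regulators of receptor turnover, beta-catenin with both Axins, and 4 Tcf and Lef factors. The groups were escape e2, escape e1 and the parental cells, with 3 RNA sequencing libraries each. Both escape lines derive from the parental tumor line and resist immunotherapy, by the description of the series. All 3 groups carried the C57BL/6 background, were grown in culture in DMEM with serum and received no treatment. The labels name neither the therapy nor whether an escape line is 1 clone, and leave unsaid whether separate cultures stand behind the libraries. The p-values below therefore measure only the spread between these libraries, which may be technical.

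Wnt ligands are secreted lipid-modified proteins that bind Frizzled receptors together with the co-receptors Lrp5 or Lrp6. This binding stops the destruction of beta-catenin by a complex built on Axin, and beta-catenin then enters the nucleus and activates genes with Tcf and Lef factors, among them the feedback gene Axin2. Other ligands, such as Wnt5a, act largely without beta-catenin through receptors such as Ror1 and Ror2. In pancreatic cancer, loss of the ubiquitin ligase RNF43 in human tumors is known to make the cells depend on Wnt ligands.

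Expression is given as TPM, the relative abundance of transcripts scaled for gene length and library, which keeps no read depth, so the depth behind each value is unknown. Values of a group are listed in the order of library numbers 1 to 3. Fold changes are differences of group means on the log2(TPM + 1) scale ± SE, and are compressed where TPM is low. The tests are limma fits across 12769 genes, those that reached 1 TPM in 3 or more of the 9 libraries. "Called" means an adjusted p (Benjamini-Hochberg) under 0.05. Of the 52 members, 33 passed this filter.

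Library 1 stood somewhat apart in e1 and in the parental cells. Over tested genes, its Pearson correlation with both other libraries was 0.9868 in e1, where those correlated at 0.9944 with each other, and 0.991 and 0.9918 in parental cells against 0.9948. Of 10 markers of pancreatic ductal epithelium, 7 had a mean of 1 TPM or more in e2, 6 in e1 and all 10 in parental cells, with summed levels of 1718 to 1783 TPM in e2, 1185 to 1224 TPM in e1 and 8724 to 9902 TPM in parental cells. Of 12 fibroblast markers, 10 had a mean of 1 TPM or more in e2, 8 in e1 and 2 in parental cells. Their summed levels were 4916 to 5123 TPM in e2, 4309 to 6255 TPM in e1 and 153 to 169.9 TPM in parental cells. Most of it came from S100a4, at 4584 to 4788 TPM in e2, 3982 to 5911 TPM in e1 and 136 to 149.8 TPM in parental cells. Lum was listed at 0 in all 9 libraries, Fap in all e1 libraries, and Col1a2, Col3a1, Dcn, Lum and Pdgfrb in all parental libraries. Markers of leukocytes, endothelium, acinar and endocrine cells summed to between 0.17 and 17.3 TPM per list in every library. The part that these shifts play in the Wnt results was not tested. In such bulk samples, fewer cells of a type and less RNA per cell cannot be told apart.

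Wnt genes were called in both directions between the groups. Against the parental cells, 15 of the 33 tested members were higher and 14 lower in e2, where 73.5% of all 12769 tested genes were called (40.8% higher, 32.7% lower). In e1, 13 were higher and 14 lower, beside 70.6% of all tested genes (35.7% higher, 34.9% lower). Between the lines, 18 members were higher and 9 lower in e2 than in e1, beside 70.3% of all tested genes (40.6% higher, 29.7% lower). Since most genes were called, these shares say little about the Wnt genes by themselves. The balance over all genes depended on the scaling: e2 against parental cells had 5209 genes higher and 4174 lower as given, 4633 and 4828 with median-ratio scaling, and 4625 and 4808 in the rlog table. For e2 against e1, 5189 higher and 3792 lower became 4624 and 4449 with median-ratio scaling. The median absolute log2 fold change was 1.06 in e2 and 1.14 in e1 over the members, against 0.47 and 0.44 over all tested genes, and 0.58 against 0.43 between the lines. Changes of at least 1 on the log2 scale were called in 17 of 33 members in e2 (23.7% of all tested genes), in 18 in e1 (20.2%) and in 8 between the lines (17.8%).

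The filter shaped part of these counts and medians. In 11 tested members the parental mean was below 1 TPM, so escape libraries carried them past the filter and a fall could hardly be seen. Of these, 10 were called higher in e2 and 9 in e1. The reverse held for members below 1 TPM in an escape line and not in parental cells, 4 in e2 and 5 in e1, all of which were called lower. Among members at 1 TPM or more in both groups, 5 of 18 were higher and 10 lower in e2, and 4 of 17 were higher and 9 lower in e1. The shares over all genes at such levels were not counted, so no lean of the Wnt genes can be read from this. Members below 1 TPM in a group passed mainly through libraries of another group, which need not be the other group compared. In 4 tested members the means of parental cells and of e1 were both below 1 TPM. The same filter held for all tested genes, and its effect on their medians was not counted. The medians and counts of changes of at least 1 are therefore descriptions, which do not show that Wnt genes changed more than others.

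**Figure D1:**
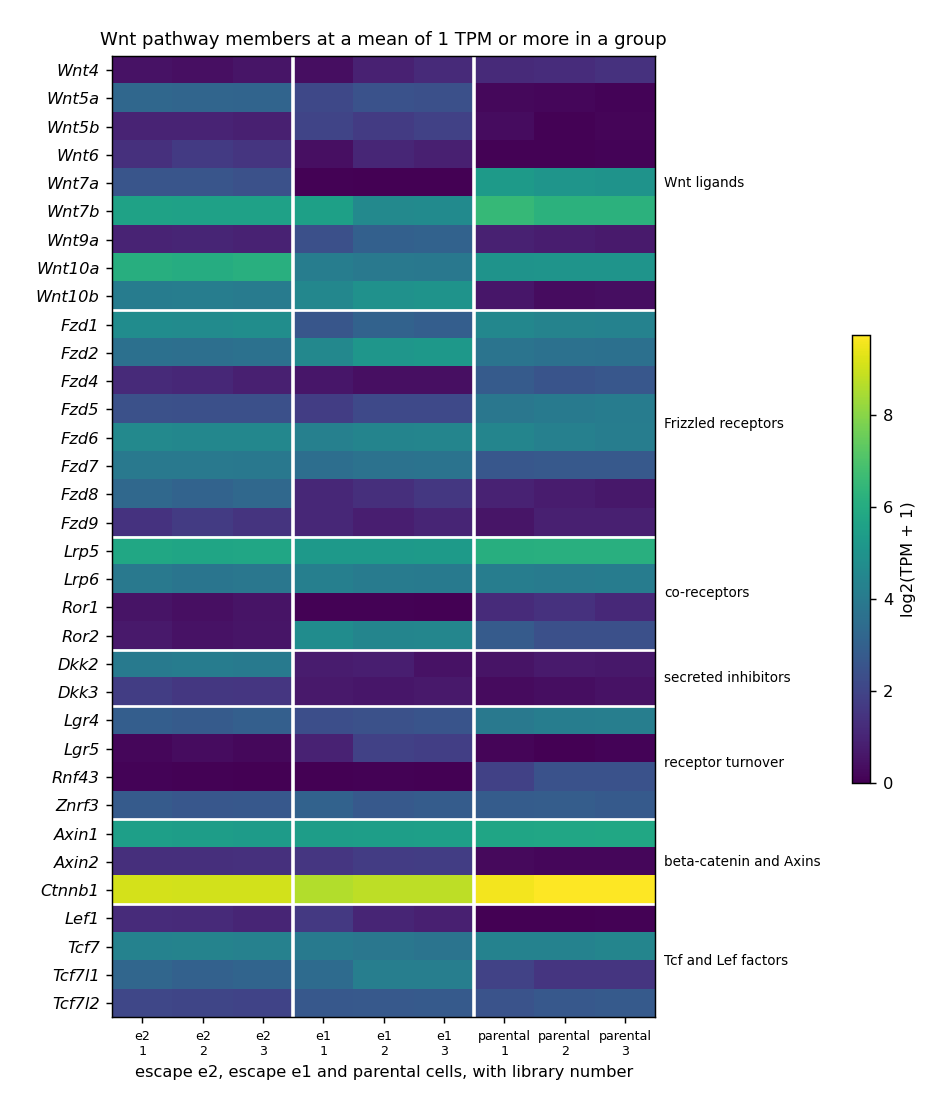
Levels of the 34 members with a mean of 1 TPM or more in at least 1 group, as log2(TPM + 1), in 3 libraries each of e2, e1 and parental cells, with rows grouped by role. Ctnnb1 is the brightest row in every library, and the rows Wnt7a, Wnt10b, Ror2, Dkk2 and Rnf43 change colour between groups more than between libraries of a group.

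The set of Wnt ligands in use differed between the groups. Of 19 ligands, 6 had a mean of 1 TPM or more in e2, 6 in e1 and 4 in parental cells. Summed over all 19, the ligands stood at 151, 146 and 150.3 TPM in e2, at 96.1, 83.5 and 85.7 TPM in e1 and at 164, 144 and 143 TPM in parental cells. The e1 sums lay below those of both other groups, while the e2 and parental sums overlapped. In e2, Wnt10a made up 45.3 ± 1.16% of the sum, Wnt7b 31.9 ± 0.35% and Wnt10b 10.8 ± 0.361% (SD, n = 3 each). In e1 the shares were 47.7, 27.8 and 28.2% for Wnt7b and 23.0, 34.9 and 36.0% for Wnt10b by library, with 16.9 ± 0.505% for Wnt10a. Wnt7b led in library 1 and Wnt10b in the other two. In parental cells the largest shares were those of Wnt7b at 53.8 ± 1.12%, Wnt7a at 22.8 ± 0.821% and Wnt10a at 21.3 ± 1.94%.

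**Figure D2:**
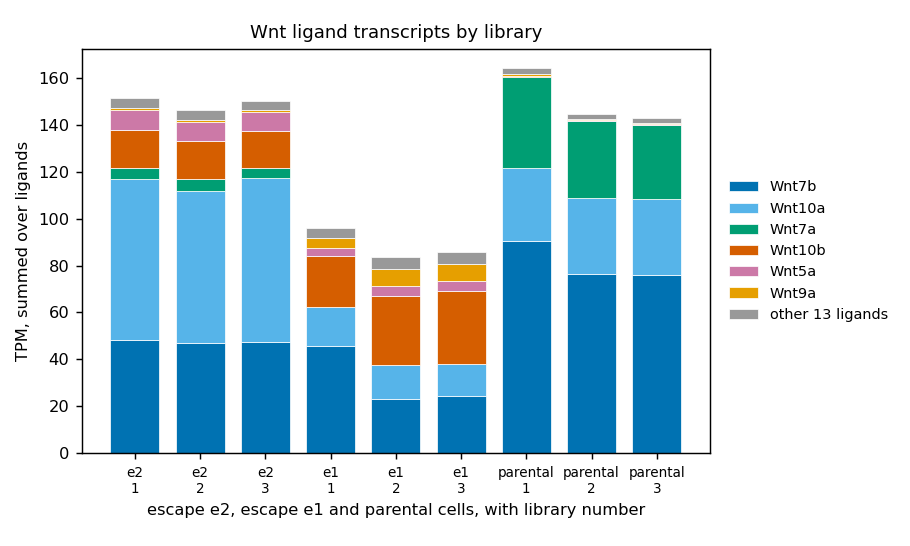
Level of Wnt ligand transcripts in each library in TPM, stacked by gene, for e2, e1 and parental cells. The e1 bars end at 83.5 to 96.1 TPM, below all others, the Wnt7a block is large only in parental libraries, and the Wnt10b block is visible only in the escape libraries.

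Against parental cells, Wnt7a and Wnt10b changed most among the ligands in e1, in opposite directions. In e2 the largest change was that of Wnt10b, and the rise of Wnt5a (3.03 ± 0.10) exceeded the fall of Wnt7a in size. Wnt7a (chromosome 6, 91363981 to 91411353), a ligand of epithelia, had 4.86, 4.99 and 4.33 TPM in e2, 0.0518, 0 and 0.0245 TPM in e1 and 38.7, 32.9 and 31.3 TPM in parental cells. The 3 groups did not overlap, and e1 was at or near 0. The log2 fold change was -2.62 ± 0.09 (adjusted p = 7.28e-09) in e2 and -5.10 ± 0.09 (adjusted p = 1.33e-10) in e1, and e2 stood above e1 by 2.48 ± 0.09 (adjusted p = 2.51e-08). With a pseudocount of 0.1 in place of 1, the log2 fold change in e1 was -8.11, and e2 stood above e1 by 5.28. Wnt10b (chromosome 15, 98770712 to 98778206), a ligand known to hold back fat cell formation, had 16.2, 16.4 and 15.7 TPM in e2 and 22.1, 29.1 and 30.9 TPM in e1, against 0.488, 0.25 and 0.273 TPM in parental cells. It rose by 3.68 ± 0.12 (adjusted p = 5.18e-09) in e2 and by 4.40 ± 0.12 (adjusted p = 1.72e-09) in e1, with every e1 library above every e2 library (-0.72 ± 0.12, adjusted p = 0.000552 for e2 against e1).

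The promoters of Wnt7a and Wnt10b are shown as those of the ligands with the largest changes, both in e1 against parental cells. They are 300 bases from RefSeq on GRCm38.p6, from 250 before to 50 after the start, 5′ to 3′ in the direction of the gene. Capitals would mark the letters CTTTGAA, or else CTTTGAT, or else CTTTGTA, or else CTTTGTT, on either strand, the letters at the core of Tcf and Lef binding sites. Neither window holds any of these 4 motifs. Their GC content was 76% for Wnt7a, with 42 CG pairs, and 66.3% for Wnt10b, with 18.
Wnt7a (chr6:91411304-91411603, minus strand): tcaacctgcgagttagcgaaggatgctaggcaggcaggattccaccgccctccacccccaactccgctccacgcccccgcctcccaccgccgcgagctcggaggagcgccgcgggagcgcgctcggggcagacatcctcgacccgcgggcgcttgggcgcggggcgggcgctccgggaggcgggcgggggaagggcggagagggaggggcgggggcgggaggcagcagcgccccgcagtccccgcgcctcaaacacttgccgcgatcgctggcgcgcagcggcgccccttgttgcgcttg
Wnt10b (chr15:98778101-98778400, minus strand): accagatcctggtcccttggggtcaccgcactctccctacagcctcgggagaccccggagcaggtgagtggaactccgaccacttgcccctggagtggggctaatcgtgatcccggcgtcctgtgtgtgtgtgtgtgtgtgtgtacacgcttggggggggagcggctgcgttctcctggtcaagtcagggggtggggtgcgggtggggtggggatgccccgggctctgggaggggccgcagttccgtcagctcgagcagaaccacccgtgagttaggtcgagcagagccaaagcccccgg

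Wnt10a moved in opposite directions in the escape lines, and Wnt7b fell in both. Wnt10a, close kin of Wnt10b and known for its role in teeth and hair, had 68.4, 64.8 and 70 TPM in e2, 16.3, 14.5 and 14.0 TPM in e1 and 31.3, 32.1 and 32.4 TPM in parental cells, with no overlap between groups. It rose by 1.06 ± 0.06 (adjusted p = 3.33e-07) in e2 and had a log2 fold change of -1.05 ± 0.06 (adjusted p = 4.05e-07) in e1, which left e2 above e1 by 2.11 ± 0.06 (adjusted p = 8.19e-09). Wnt7b, the most abundant ligand of the parental cells, had 48.4, 47.0 and 47.3 TPM in e2, 45.8, 23.2 and 24.2 TPM in e1 and 90.3, 76.5 and 76.1 TPM in parental cells. Library 1 of e1 stood just below the e2 libraries and the other e1 libraries well below it. The log2 fold change was -0.75 ± 0.22 (adjusted p = 0.0112) in e2, a call that ended with no filter on low values (adjusted p = 0.0541), and -1.42 ± 0.22 (adjusted p = 0.00028) in e1. The difference of e2 from e1, 0.67 ± 0.22 (adjusted p = 0.0206), was not called without e1 library 2 (0.50), without e1 library 3 (0.53), without e2 library 1 (0.66) or with median-ratio scaling (0.57). Nor was it called in a fit of these groups alone (adjusted p = 0.052) or with no filter (adjusted p = 0.0875).

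The related ligands Wnt5a and Wnt5b, best known for signalling without beta-catenin, rose in both lines. Wnt5a had 8.5, 8.02 and 7.92 TPM in e2, 3.33, 4.52 and 4.23 TPM in e1 and 0.165, 0.122 and 0.0669 TPM in parental cells. Its log2 fold change was 3.03 ± 0.10 (adjusted p = 4.86e-09) in e2 and 2.16 ± 0.10 (adjusted p = 5.48e-08) in e1, and e2 exceeded e1 by 0.87 ± 0.10 (adjusted p = 3.85e-05). Wnt5b ran the other way between the lines, at 0.953, 0.943 and 0.833 TPM in e2, 3.0, 2.27 and 2.67 TPM in e1 and 0.265, 0.0293 and 0.108 TPM in parental cells. It rose by 0.76 ± 0.10 (adjusted p = 0.000109) in e2 and 1.69 ± 0.10 (adjusted p = 3.93e-07) in e1, with a difference of -0.93 ± 0.10 (adjusted p = 3.09e-05) between e2 and e1.

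Wnt9a, a ligand of developing joints, rose in e1 and was not called in e2. It had 0.959, 1.0 and 0.896 TPM in e2, 4.27, 6.98 and 7.28 TPM in e1 and 0.86, 0.722 and 0.623 TPM in parental cells, a log2 fold change of 0.17 ± 0.16 (adjusted p = 0.346) in e2 and of 2.02 ± 0.16 (adjusted p = 2.1e-06) in e1. The difference of e2 from e1 was itself called, at -1.85 ± 0.16 (adjusted p = 5.1e-06). Wnt6 was low in all groups, at 1.53, 2.13 and 1.8 TPM in e2, 0.302, 1.06 and 0.815 TPM in e1 and 0.0312, 0.0301 and 0.0742 TPM in parental cells, and the groups did not overlap (1.43 ± 0.16, adjusted p = 2.31e-05 in e2, 0.70 ± 0.16, adjusted p = 0.00282 in e1, and 0.73 ± 0.16, adjusted p = 0.00226 for e2 against e1). Wnt4, a ligand of kidney and gonad development, had 0.401, 0.302 and 0.46 TPM in e2, 0.288, 0.881 and 1.21 TPM in e1 and 1.21, 1.38 and 1.63 TPM in parental cells. It fell in e2 (-0.79 ± 0.17, adjusted p = 0.00246). The e1 and parental libraries overlapped, and the call in e1 (-0.45 ± 0.17, adjusted p = 0.0405) ended without any 1 library except e1 library 3. Without e1 library 1 the value was -0.23 (adjusted p = 0.0799), and the difference of e2 from e1, -0.34 ± 0.17 (adjusted p = 0.112), was then called at -0.56 (adjusted p = 0.00125). The call in e1 also ended with a pseudocount of 0.1, with no filter and in a fit of these groups alone.

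The remaining 10 ligands did not pass the filter. Wnt3, Wnt3a, Wnt8a, Wnt8b and Wnt9b, which include the ligands most used to activate beta-catenin in culture, were listed at 0 in all 9 libraries. Wnt1, Wnt2, Wnt2b, Wnt11 and Wnt16 stayed below 1 TPM in every library, with 0.724 TPM of Wnt11 in an e1 library as the highest value.

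Of 10 Frizzled receptors, 8 were tested, and the receptor set shifted less in sum than in composition. The 10 together stood at 90.5, 87.5 and 89.0 TPM in e2, at 61.9, 78.9 and 81.7 TPM in e1 and at 81.6, 75.7 and 74.8 TPM in parental cells, with e2 above both other groups and e1 overlapping the parental cells. Fzd1 and Fzd2 separated the lines. Fzd1 had 25.9, 24.8 and 26.1 TPM in e2, 5.02, 7.38 and 6.46 TPM in e1 and 21.9, 19.3 and 19.1 TPM in parental cells, a log2 fold change of -1.54 ± 0.11 (adjusted p = 1.32e-06) in e1 and a difference of 1.88 ± 0.11 (adjusted p = 5.08e-07) between e2 and e1. Its rise in e2 against parental cells, 0.34 ± 0.11 (adjusted p = 0.0214), was not called without parental library 2 (0.31) or 3 (0.30), without e2 library 1 (0.33) or 3 (0.32), under median-ratio scaling (0.24), in the rlog table (0.22) or with no filter (adjusted p = 0.085). Fzd2 had 11, 10.9 and 11.3 TPM in e2, 22.6, 33.6 and 35.2 TPM in e1 and 12.6, 11.5 and 11 TPM in parental cells. It rose in e1 (1.29 ± 0.14, adjusted p = 2.64e-05), overlapped between e2 and parental cells (-0.07 ± 0.14, adjusted p = 0.666, 95% interval -0.39 to 0.25) and was lower in e2 than in e1 (-1.36 ± 0.14, adjusted p = 2.09e-05).

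Fzd4, the receptor of norrin, and Fzd5, a receptor of gut epithelium, fell in both lines. Fzd4 had 1.21, 1.12 and 0.802 TPM in e2, 0.487, 0.308 and 0.314 TPM in e1 and 6.01, 4.75 and 5.32 TPM in parental cells, with log2 fold changes of -1.64 ± 0.11 (adjusted p = 6.78e-07) in e2 and -2.21 ± 0.11 (adjusted p = 9.11e-08) in e1 and a difference of 0.58 ± 0.11 (adjusted p = 0.00112) between e2 and e1. Fzd5 had 4.34, 4.17 and 4.26 TPM in e2, 2.39, 3.49 and 3.41 TPM in e1 and 13.5, 15.2 and 15.9 TPM in parental cells. Its log2 fold changes were -1.59 ± 0.11 (adjusted p = 9.72e-07) in e2 and -1.96 ± 0.11 (adjusted p = 2.48e-07) in e1. The difference of e2 from e1, 0.37 ± 0.11 (adjusted p = 0.0145), was 0.24 without e1 library 1 (adjusted p = 0.015) and was not called with no filter (adjusted p = 0.0629). No parental library of either gene overlapped an escape library.

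Fzd7 and Fzd8 rose in both lines. Fzd7, a receptor of stem cells and many tumors, had 14.3, 14.4 and 14.0 TPM in e2, 10.4, 11.6 and 12.2 TPM in e1 and 5.34, 5.52 and 5.56 TPM in parental cells, with no overlap. It rose by 1.24 ± 0.07 (adjusted p = 1.84e-07) in e2 and 0.94 ± 0.07 (adjusted p = 1.44e-06) in e1, and e2 exceeded e1 by 0.30 ± 0.07 (adjusted p = 0.00336), or by 0.19 in the rlog table. Fzd8 had 8.69, 7.49 and 8.72 TPM in e2, 1.13, 1.51 and 1.99 TPM in e1 and 0.89, 0.68 and 0.529 TPM in parental cells. Its rise was 2.45 ± 0.13 (adjusted p = 1.59e-07) in e2 and 0.57 ± 0.13 (adjusted p = 0.00373) in e1, a difference of 1.88 ± 0.13 (adjusted p = 1.61e-06).

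Fzd6 and Fzd9 were higher in e2 than in parental cells and were not called in e1. Fzd6, which acts in planar cell polarity, had 22.9, 22.1 and 21.7 TPM in e2, 18.2, 19.8 and 20.5 TPM in e1 and 20.7, 17.8 and 16.6 TPM in parental cells. It was called in e2 (0.27 ± 0.08, adjusted p = 0.015) but not without parental library 3 (0.20), without e2 library 1 (0.25), under median-ratio scaling (0.17), in the rlog table (0.15) or with no filter. It was not called in e1 (0.09 ± 0.08, adjusted p = 0.37), where it passed without parental library 1 (0.17, adjusted p = 0.0483), nor between e2 and e1 (0.18 ± 0.08, adjusted p = 0.0757), where it passed without parental library 1 and in a fit of these groups alone. Fzd9 had 1.72, 2.2 and 1.76 TPM in e2, 1.13, 0.761 and 1.03 TPM in e1 and 0.457, 0.794 and 0.834 TPM in parental cells. It rose in e2 (0.77 ± 0.12, adjusted p = 0.000243), was not called in e1 (0.22 ± 0.12, adjusted p = 0.124) and was higher in e2 than in e1 (0.55 ± 0.12, adjusted p = 0.00223). Fzd3 and Fzd10 were not tested and stayed at or below 0.534 TPM, the e1 value of Fzd3 in library 1.

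The Fzd7 promoter is shown because it is a member higher in both lines whose window holds a Tcf and Lef core motif. AACAAAG, which is CTTTGTT read on the other strand, is in capitals. Of the 10 members called higher in both lines, 7 have a window in the RefSeq table and 3 of these hold a motif: Fzd7, Lef1 and Wnt5b. Over all members, 7 of 35 genes with a window held at least 1 of the 4 motifs (20%), beside 5121 of 27025 genes in the whole table (18.9%).
Fzd7 (chr1:59481897-59482196, plus strand): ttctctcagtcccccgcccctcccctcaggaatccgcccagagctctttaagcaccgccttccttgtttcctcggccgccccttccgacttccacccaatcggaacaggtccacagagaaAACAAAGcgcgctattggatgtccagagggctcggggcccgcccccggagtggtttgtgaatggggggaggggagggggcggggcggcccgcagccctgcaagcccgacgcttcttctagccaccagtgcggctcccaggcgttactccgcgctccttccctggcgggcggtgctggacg

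**Figure D3:**
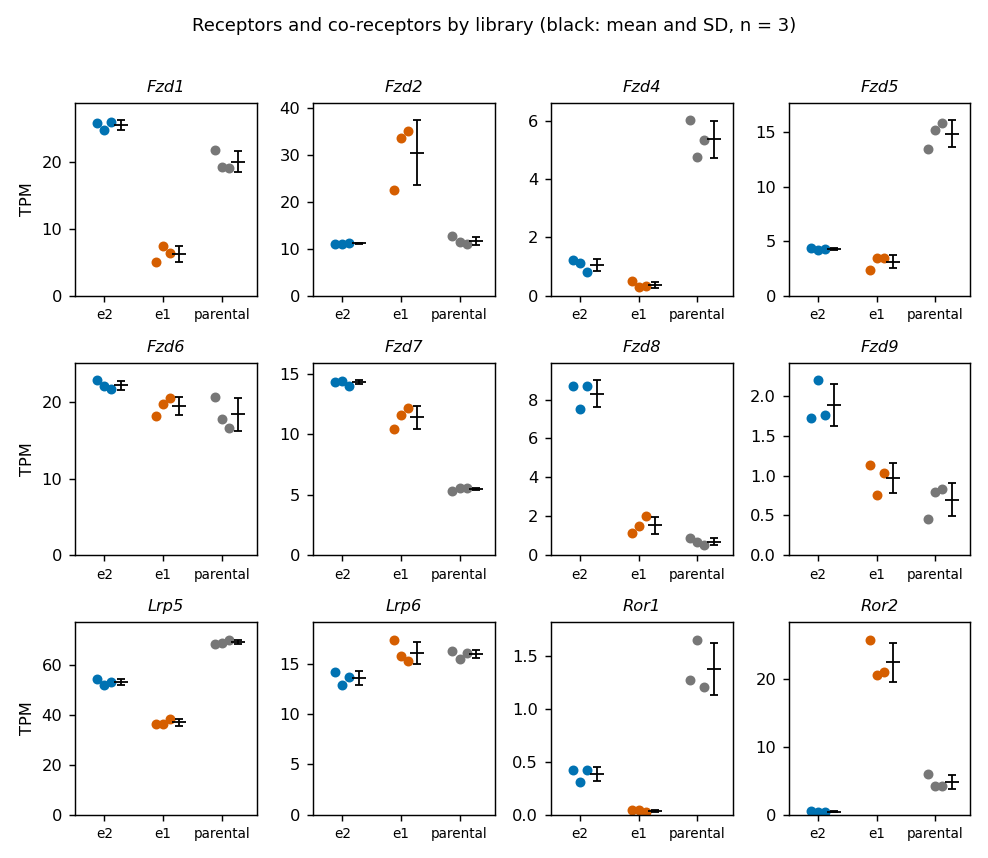
Level in TPM of the 8 tested Frizzled receptors and 4 co-receptors in each library of e2, e1 and parental cells, with the mean and SD of 3 libraries in black and a separate axis for each gene. Ror2 and Fzd2 are high in e1 alone, Fzd8 in e2 alone, and Fzd4, Fzd5 and Ror1 in parental cells alone.

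Among the co-receptors, Ror2 (chromosome 13, 53109317 to 53286124), a receptor kinase for Wnt5a, differed most between the lines of all tested members on the log2(TPM + 1) scale. It had 0.599, 0.385 and 0.456 TPM in e2, 25.8, 20.6 and 21.1 TPM in e1 and 6.0, 4.26 and 4.22 TPM in parental cells, with no overlap between any of the groups. It had a log2 fold change of -1.97 ± 0.13 (adjusted p = 7.59e-07) in e2 and rose by 2.02 ± 0.13 (adjusted p = 6.91e-07) in e1, so that e2 and e1 differed by -3.99 ± 0.13 (adjusted p = 1.44e-08). Its kin Ror1 had 0.423, 0.311 and 0.422 TPM in e2, 0.0438, 0.0411 and 0.026 TPM in e1 and 1.27, 1.65 and 1.2 TPM in parental cells. Ror1 fell in e2 (-0.77 ± 0.09, adjusted p = 2.72e-05) and in e1 (-1.19 ± 0.09, adjusted p = 1.33e-06), and e2 stayed above e1 (0.42 ± 0.09, adjusted p = 0.00188). The Ror2 promoter, shown for the largest difference between the lines on the log2(TPM + 1) scale, holds none of the 4 motifs and has a GC content of 74.7%.
Ror2 (chr13:53286075-53286374, minus strand): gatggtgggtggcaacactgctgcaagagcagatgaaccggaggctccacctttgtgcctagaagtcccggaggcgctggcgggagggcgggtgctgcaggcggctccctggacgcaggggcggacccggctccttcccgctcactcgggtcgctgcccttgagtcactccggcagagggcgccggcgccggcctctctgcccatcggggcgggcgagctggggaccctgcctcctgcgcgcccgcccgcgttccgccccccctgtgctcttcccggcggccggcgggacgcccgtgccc

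Lrp5 and Lrp6, the co-receptors of the beta-catenin branch, changed less. Lrp5 had 54.5, 52.2 and 53.4 TPM in e2, 36.5, 36.3 and 38.6 TPM in e1 and 68.7, 69.1 and 70.3 TPM in parental cells. The groups did not overlap, with log2 fold changes of -0.37 ± 0.05 (adjusted p = 6.99e-05) in e2 and -0.88 ± 0.05 (adjusted p = 1.58e-07) in e1 and a difference of 0.51 ± 0.05 (adjusted p = 9.18e-06) between e2 and e1. Lrp6 had 14.2, 12.9 and 13.7 TPM in e2, 17.4, 15.8 and 15.3 TPM in e1 and 16.3, 15.5 and 16.1 TPM in parental cells. It was lower in e2 than in parental cells (-0.22 ± 0.07, adjusted p = 0.0135), a call lost without e2 library 2 (-0.18), and lower in e2 than in e1 (-0.23 ± 0.07, adjusted p = 0.0105). In e1 it was not called (0.01 ± 0.07, adjusted p = 0.863, 95% interval -0.13 to 0.16), and the sign turned without parental library 2 (-0.01) or without e1 library 1 (-0.04).

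The secreted inhibitors of the Dkk and Sfrp families were nearly silent outside e2. Summed over the 4 Dkk and 4 Sfrp genes, they stood at 17.8, 18.1 and 17.7 TPM in e2, at 1.87, 1.56 and 1.36 TPM in e1 and at 1.52, 1.42 and 1.55 TPM in parental cells. Nearly all of the e2 sum was Dkk2 (chromosome 3, 132085266 to 132180304), which blocks Lrp5 and Lrp6 and can also act as a weak activator. Dkk2 had 15.1, 15.9 and 15.2 TPM in e2, 0.66, 0.766 and 0.374 TPM in e1 and 0.433, 0.643 and 0.535 TPM in parental cells. It rose in e2 (3.42 ± 0.10, adjusted p = 3.02e-09) and stood above e1 by 3.37 ± 0.10 (adjusted p = 8.82e-09), while e1 and parental libraries overlapped (0.05 ± 0.10, adjusted p = 0.673, 95% interval -0.18 to 0.29) and the sign turned without e1 library 2 (-0.02).

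Dkk3, a divergent family member that does not bind Lrp6 like the others, had 2.4, 1.95 and 1.88 TPM in e2, 0.57, 0.486 and 0.576 TPM in e1 and 0.203, 0.285 and 0.374 TPM in parental cells. It rose in e2 (1.26 ± 0.09, adjusted p = 9.96e-07), and e2 exceeded e1 by 0.99 ± 0.09 (adjusted p = 7.28e-06). The call in e1 (0.26 ± 0.09, adjusted p = 0.0236) ended without parental library 1 (0.22), parental library 2 (0.26) or e1 library 3 (0.25), and with no filter. Dkk1, Dkk4, Sfrp1, Sfrp2, Sfrp4 and Sfrp5 were not tested, and their highest value in any library was 0.747 TPM, of Sfrp4 in parental library 1. The Dkk2 promoter, shown for the member with the largest rise in e2 alone, holds none of the 4 motifs and has a GC content of 57.7%.
Dkk2 (chr3:132085042-132085341, plus strand): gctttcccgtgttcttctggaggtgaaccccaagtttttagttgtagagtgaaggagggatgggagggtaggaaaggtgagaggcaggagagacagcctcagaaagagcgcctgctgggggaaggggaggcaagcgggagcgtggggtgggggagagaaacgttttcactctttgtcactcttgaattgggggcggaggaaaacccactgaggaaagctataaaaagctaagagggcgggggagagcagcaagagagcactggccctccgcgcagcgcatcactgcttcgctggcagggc

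Of the 3 tested genes that set receptor turnover, Rnf43 and Lgr4 fell in both lines and Znrf3 was not called. Rnf43 (chromosome 11, 87663087 to 87735539), a ubiquitin ligase that removes Frizzled receptors from the surface and is itself a beta-catenin target, had 0.0594, 0.0353 and 0.0174 TPM in e2, 0, 0.0373 and 0 TPM in e1 and 2.67, 4.52 and 4.54 TPM in parental cells. Each escape library was close to 0 and none overlapped the parental libraries. The log2 fold change was -2.22 ± 0.15 (adjusted p = 5.6e-07) in e2 and -2.25 ± 0.15 (adjusted p = 5.6e-07) in e1, and the difference between the lines was not called (0.04 ± 0.15, adjusted p = 0.844, 95% interval -0.29 to 0.36). With a pseudocount of 0.1 the changes were -4.84 in e2 and -5.13 in e1. Its partner Znrf3, which does the same work, had 5.93, 5.33 and 5.35 TPM in e2, 7.37, 5.62 and 6.14 TPM in e1 and 6.13, 6.31 and 5.73 TPM in parental cells. All groups overlapped and Znrf3 was not called in e2 (-0.11 ± 0.10, adjusted p = 0.316, 95% interval -0.33 to 0.10) or in e1 (0.06 ± 0.10, adjusted p = 0.605, 95% interval -0.16 to 0.27), where the sign turned without e1 library 1 (-0.04). Between e2 and e1 (-0.17 ± 0.10, adjusted p = 0.14) it was called in the rlog table (-0.25) and under no other alternative.

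Lgr4, an R-spondin receptor that shields Frizzled from this removal, had 6.56, 6.01 and 6.81 TPM in e2, 4.03, 4.34 and 4.77 TPM in e1 and 14.2, 16.3 and 16.9 TPM in parental cells. Its log2 fold change was -1.17 ± 0.09 (adjusted p = 1.44e-06) in e2 and -1.64 ± 0.09 (adjusted p = 1.45e-07) in e1, and e2 was above e1 by 0.47 ± 0.09 (adjusted p = 0.000898). Lgr5, the related receptor that marks gut stem cells, had 0.122, 0.243 and 0.165 TPM in e2, 0.913, 2.67 and 2.5 TPM in e1 and 0.0908, 0.0125 and 0.0618 TPM in parental cells. It reached 1 TPM in only 2 libraries, both of e1, and so was not tested. With no filter it was higher in e1 than in parental cells (1.46 ± 0.25, adjusted p = 0.00325) and lower in e2 than in e1 (-1.31 ± 0.25, adjusted p = 0.00571).

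Ctnnb1, which encodes beta-catenin and serves both in Wnt signalling and in cell adhesion, was the member with the highest level. It had 551, 544 and 537 TPM in e2, 397, 440.3 and 437 TPM in e1 and 769.7, 857 and 848 TPM in parental cells, with no overlap. The transcript fell in e2 (-0.60 ± 0.06, adjusted p = 9.25e-06) and further in e1 (-0.96 ± 0.06, adjusted p = 3.59e-07), with e2 above e1 by 0.36 ± 0.06 (adjusted p = 0.000378), or by 0.22 with the rlog values. Beta-catenin is regulated at the level of its protein, which was not measured. The scaffold gene Axin1 had 44.1, 42.5 and 39.9 TPM in e2, 42.3, 43.0 and 43.9 TPM in e1 and 51.7, 54.0 and 54.7 TPM in parental cells. It was lower in e2 (-0.34 ± 0.05, adjusted p = 0.000312) and in e1 (-0.31 ± 0.05, adjusted p = 0.000629). The lines overlapped (-0.03 ± 0.05, adjusted p = 0.619), though e2 was called lower than e1 under median-ratio scaling (-0.13) and in the rlog table (-0.11), and the sign turned without e2 library 3 (0.01).

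Axin2 (chromosome 11, 108917828 to 108950783), a feedback gene widely read as a sign of beta-catenin activity, rose in both lines while staying low. It had 1.49, 1.5 and 1.57 TPM in e2, 1.89, 2.34 and 2.37 TPM in e1 and 0.173, 0.125 and 0.137 TPM in parental cells. No groups overlapped: the log2 fold change was 1.14 ± 0.08 (adjusted p = 9.77e-07) in e2 and 1.48 ± 0.08 (adjusted p = 1.71e-07) in e1, with a difference of -0.34 ± 0.08 (adjusted p = 0.00388) between e2 and e1. With a pseudocount of 0.1 the rises were 2.73 in e2 and 3.23 in e1.

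Of the nuclear partners of beta-catenin, Lef1 and Tcf7l1 rose in both lines and Tcf7 and Tcf7l2 were lower in 1 line each. Tcf7l1, which mostly represses its targets, had 8.24, 7.2 and 7.84 TPM in e2, 9.73, 17.2 and 16.9 TPM in e1 and 2.77, 1.8 and 1.86 TPM in parental cells. It rose by 1.49 ± 0.20 (adjusted p = 9.61e-05) in e2 and 2.29 ± 0.20 (adjusted p = 4.91e-06) in e1, and e2 was below e1 (-0.80 ± 0.20, adjusted p = 0.0055). Lef1, which mostly activates and is itself a known target, had 1.3, 1.22 and 0.986 TPM in e2, 2.06, 1.02 and 0.822 TPM in e1 and 0, 0 and 0.0417 TPM in parental cells. It rose by 1.09 ± 0.17 (adjusted p = 0.000251) in e2 and 1.14 ± 0.17 (adjusted p = 0.000197) in e1, or by 3.49 in e2 and 3.54 in e1 with a pseudocount of 0.1. The lines overlapped (-0.05 ± 0.17, adjusted p = 0.809), and the sign of their difference turned without e1 library 1 (0.17) or without e2 library 3 (0.01).

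Tcf7, the factor TCF1 of lymphocytes, was the most abundant of the 4 in e2 and parental cells, with 19.1, 19.5 and 18.4 TPM in e2, 14.9, 13.4 and 12.6 TPM in e1 and 18.8, 18.8 and 20.4 TPM in parental cells. It was lower in e1 than in parental cells (-0.48 ± 0.07, adjusted p = 0.000186), and e2 exceeded e1 by 0.45 ± 0.07 (adjusted p = 0.000274). In e2 it was not called against parental cells (-0.02 ± 0.07, adjusted p = 0.768, 95% interval -0.18 to 0.13), with a turned sign without parental library 3 (0.01). Tcf7l2, the main factor of gut epithelium, had 3.19, 3.06 and 2.86 TPM in e2, 5.51, 5.53 and 5.72 TPM in e1 and 4.66, 5.5 and 5.73 TPM in parental cells. It was lower in e2 than in parental cells (-0.64 ± 0.08, adjusted p = 7.92e-05) and than in e1 (-0.71 ± 0.08, adjusted p = 4.55e-05). Between e1 and parental cells it was not called (0.07 ± 0.08, adjusted p = 0.486, 95% interval -0.12 to 0.26), and the sign turned without parental library 1 (-0.01).

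**Figure D4:**
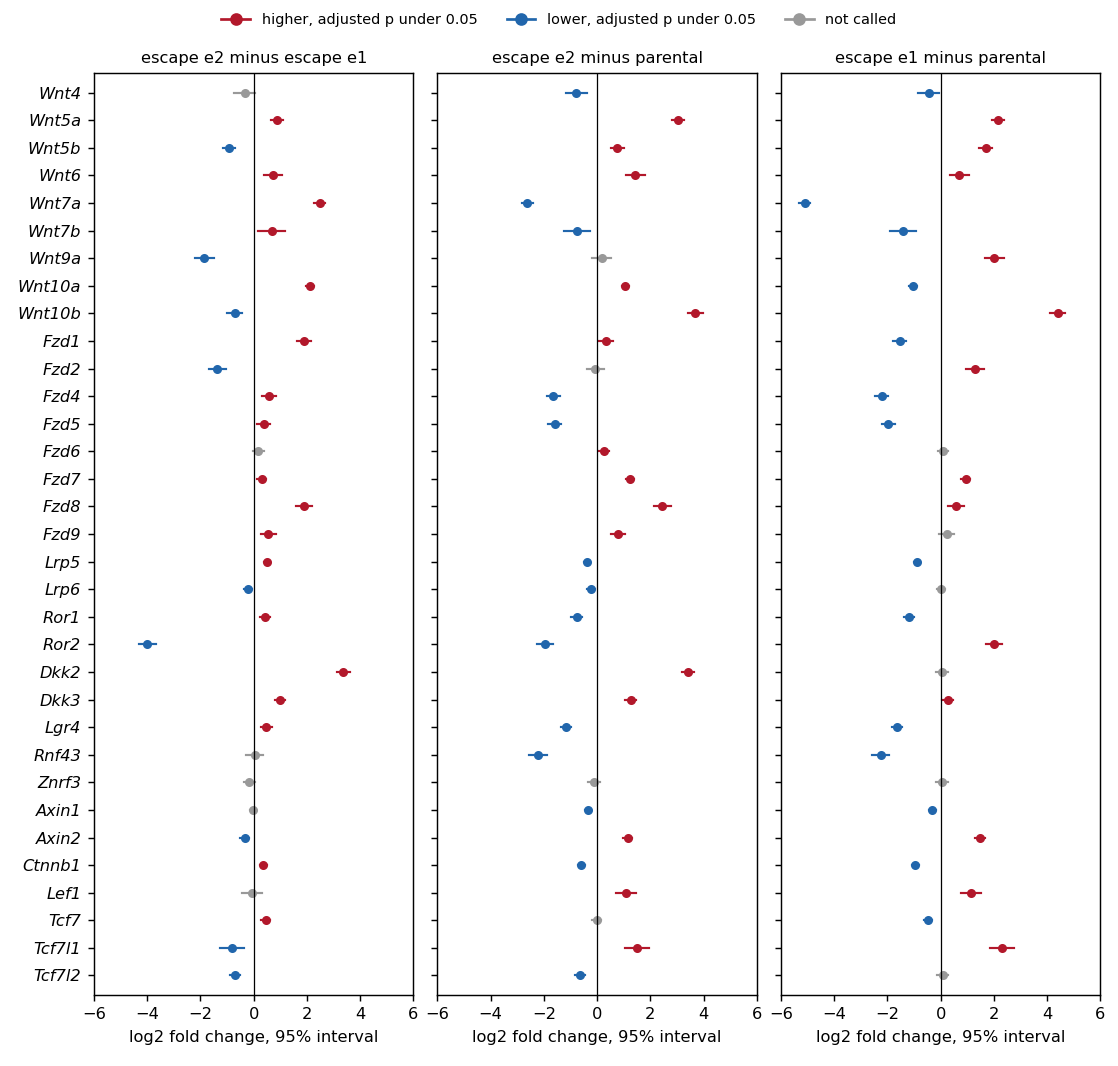
Log2 fold change with its 95% interval from limma for the 33 tested members, for e2 minus e1, e2 minus parental and e1 minus parental, with called genes in red (higher) or blue (lower). Wnt10a, Fzd1 and Ror2 lie on opposite sides of 0 in the middle and right panels, while Wnt7a, Fzd4, Fzd5, Rnf43 and Lgr4 lie left of 0 in both.

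The other genes of the pathway were counted from 5 lists that hold 122 further genes, of which 89 were tested. Against parental cells, 37 were higher and 25 lower in e2, and 45 were higher and 20 lower in e1. Between the lines, 31 were higher and 34 lower in e2. The called share was 69.7% in e2, 73% in e1 and 73% between the lines, beside 73.5, 70.6 and 70.3% of all tested genes in the same order. By direction, 40.8% of all tested genes were higher and 32.7% lower in e2, and 35.7% and 34.9% in e1. Between the lines, 40.6% were higher and 29.7% lower in e2. The counts of each list below are to be read beside these shares. The e2 and e1 comparisons share the parental libraries, so their counts are not independent.

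Of 23 tested genes of Wnt secretion, receptor-proximal signalling and beta-catenin turnover, 8 were higher and 5 lower in e2, 11 higher and 5 lower in e1, and 6 higher and 11 lower in e2 than in e1. Porcn, which attaches the lipid that ligands need, had 11.9, 11.4 and 11.7 TPM in e2, 4.48, 5.86 and 6.18 TPM in e1 and 43.3, 36.1 and 36.6 TPM in parental cells (-1.64 ± 0.11, adjusted p = 6.03e-07 in e2, -2.61 ± 0.11, adjusted p = 2.59e-08 in e1). Wls, the carrier that brings the lipid-bearing ligands to the surface, went the other way, with 135, 130.4 and 135 TPM in e2, 138, 181 and 175 TPM in e1 and 37.4, 45.6 and 44.7 TPM in parental cells. Its rise was 1.92 ± 0.11 (adjusted p = 2.07e-07) in e1. Notum, a secreted enzyme that strips the lipid and a known target gene, had 9.78, 10.2 and 9.55 TPM in e2, 1.01, 2.94 and 2.19 TPM in e1 and 0.16, 0.124 and 0.152 TPM in parental cells, a rise of 3.24 ± 0.20 (adjusted p = 3.7e-07) in e2 and a difference of 1.88 ± 0.20 (adjusted p = 2.3e-05) between e2 and e1.

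R-spondins, further receptors and other extracellular modulators had 22 members, of which 9 were tested. Of these, 6 were higher and 2 lower in e2, 5 higher and 2 lower in e1, and 4 higher and 3 lower in e2 than in e1. Lgr6, an R-spondin receptor related to Lgr4 and Lgr5, had 41.2, 41.3 and 41.4 TPM in e2, 1.83, 2.02 and 1.96 TPM in e1 and 4.48, 4.56 and 4.85 TPM in parental cells, and e2 exceeded e1 by 3.85 ± 0.06 (adjusted p = 2.6e-10). Tspan12, a partner of Fzd4 in norrin signalling, had 10.9, 10.7 and 11.6 TPM in e2, 0.538, 0.568 and 0.476 TPM in e1 and 4.38, 3.02 and 3.21 TPM in parental cells (2.98 ± 0.11, adjusted p = 2.45e-08 for e2 against e1). Both genes were thus highest in e2 and lowest in e1. The membrane proteoglycan gene Gpc4 rose by 4.45 ± 0.12 (adjusted p = 1.26e-09) in e2 and 2.31 ± 0.12 (adjusted p = 1.14e-07) in e1. Cthrc1, a secreted protein that favours Ror2 signalling, rose by 3.02 ± 0.16 (adjusted p = 1.41e-07) in e2 and 2.65 ± 0.16 (adjusted p = 3.99e-07) in e1. Serpinf1, a secreted serpin that can bind Lrp6, had 35.1, 38.5 and 34.0 TPM in e2, 28.9, 18.8 and 19.9 TPM in e1 and 0.135, 0.0433 and 0 TPM in parental cells (5.12 ± 0.14, adjusted p = 1.74e-09 in e2, 4.45 ± 0.14, adjusted p = 4.41e-09 in e1). Gpc4, Cthrc1 and Serpinf1 were near 0 in parental cells, where no fall could be seen.

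Of 17 tested nuclear cofactors, 7 were higher and 3 lower in e2, 9 higher and 2 lower in e1, and 4 higher and 5 lower in e2 than in e1. Tle4, a Groucho-type co-repressor, had 1.24, 1.46 and 1.44 TPM in e2, 1.26, 1.13 and 1.04 TPM in e1 and 15.4, 18.7 and 18.5 TPM in parental cells (-2.96 ± 0.09, adjusted p = 3.72e-09 in e2, -3.11 ± 0.09, adjusted p = 2.79e-09 in e1). Chd8, a chromatin remodeller that binds beta-catenin, was lower in e2 than in e1 (-0.94 ± 0.07, adjusted p = 2.46e-06). Against parental cells it was higher in e1 (0.80 ± 0.07, adjusted p = 5.76e-06) and not called in e2 (-0.14 ± 0.07, adjusted p = 0.106). In e2 it was called lower with median-ratio scaling (-0.23), in the rlog table (-0.21) and without e1 library 1 (-0.14). In the list of branches that do not use beta-catenin, 20 genes were tested, with 6 higher and 9 lower in e2, 8 higher and 7 lower in e1, and 7 higher and 9 lower in e2 than in e1. Celsr1, an atypical cadherin of planar cell polarity, fell in e2 (-1.13 ± 0.08, adjusted p = 7.8e-07) and in e1 (-1.96 ± 0.08, adjusted p = 1.84e-08). Camk2g, a calcium-dependent kinase, was lower in e2 than in e1 (-1.13 ± 0.05, adjusted p = 1.22e-07). Against parental cells it was higher in e1 (1.13 ± 0.05, adjusted p = 6.78e-08) and not called in e2 (0.0 ± 0.05, adjusted p = 0.978).

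Genes widely used as targets or feedback regulators moved in both directions. Of 21 tested, 11 were higher and 6 lower in e2, 13 higher and 4 lower in e1, and 11 higher and 6 lower in e2 than in e1. The called share was 81% in each comparison, beside 73.5% of all tested genes in e2, 70.6% in e1 and 70.3% between the lines. The median log2 fold change was 0.22 in e2, 0.84 in e1 and 0.39 between the lines, beside 0.07, 0.02 and 0.09 over all tested genes. With median-ratio scaling the median of all genes was -0.017 in e2. Of the 21 genes, Dact3, Notum and Vcan were below 1 TPM in parental cells, where no fall could be seen. Twist1, a transcription factor of mesenchyme, rose by 3.73 ± 0.09 (adjusted p = 6.38e-10) in e2 and 4.19 ± 0.09 (adjusted p = 3.51e-10) in e1. Myc had 81.8, 79.9 and 79.2 TPM in e2, 549, 418 and 411 TPM in e1 and 150, 169.5 and 165 TPM in parental cells, so that e2 lay below and e1 above the parental libraries (-2.49 ± 0.10, adjusted p = 5.28e-08 for e2 against e1). The cyclin gene Ccnd2 showed the same order, with 4.28, 4.42 and 4.41 TPM in e2, 59.9, 51.1 and 50.9 TPM in e1 and 23.7, 31.6 and 31.4 TPM in parental cells (-2.46 ± 0.11, adjusted p = 3.98e-08 in e2, -3.35 ± 0.11, adjusted p = 1.31e-08 for e2 against e1). Ccnd1, the cyclin gene most often cited as a target, ran the other way. It had 796, 769.6 and 773 TPM in e2, 266, 239.7 and 234 TPM in e1 and 405, 485 and 478 TPM in parental cells, with no overlap (0.78 ± 0.08, adjusted p = 1.09e-05 in e2, -0.88 ± 0.08, adjusted p = 4.76e-06 in e1, 1.66 ± 0.08, adjusted p = 9.98e-08 for e2 against e1). It falls outside the rule for named genes and was added after its values were seen. Slc7a5, an amino acid transporter gene, was also lower in e2 than in e1 (-1.06 ± 0.11, adjusted p = 1.89e-05). Id2, an inhibitor of basic helix-loop-helix factors, was lower in e1 than in parental cells (-3.0 ± 0.14, adjusted p = 6.8e-08) and higher in e2 than in e1 (2.19 ± 0.14, adjusted p = 8.93e-07), and the adhesion gene Nrcam was lower in e1 than in parental cells (-2.69 ± 0.14, adjusted p = 1.02e-07). Sp5, also on this list, fell in both lines while Axin2 rose. It had 0.193, 0.267 and 0.226 TPM in e2, 0.027, 0 and 0 TPM in e1 and 4.6, 2.87 and 3.07 TPM in parental cells (-1.86 ± 0.13, adjusted p = 8.09e-07 in e2, -2.14 ± 0.13, adjusted p = 3.3e-07 in e1). Sp5 too falls outside the rule for named genes and was added after its values were seen. Many of these genes have other known inputs, and none was tested for a response to a Wnt ligand here.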

How the data were processed

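RNA of cultured mouse pancreatic tumor cells was sequenced in 9 libraries, grouped by sample title. The authors used Salmon and DESeq2 with the mm10 build, per the submitters' processing notes. Versions, annotation and strand setting were not named there, so reads of overlapping genes may be shared. The authors deposited gene levels in TPM, without depth, and rlog values on a log2 scale.

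Using limma 3.58.1 (R 4.3.3), log2(TPM + 1) of the 12769 genes past the filter was modelled as 3 group means (trend and robust settings on), with two-sided contrasts adjusted over all genes tested. The fit was also run on simulated data with independent normal noise and few changed genes, none of them near 0 TPM in parental cells. Most genes were called in the real data, so the simulation does not cover the calls reported here. Members and gene lists were chosen with earlier results of these data known. Members with a group mean of 1 TPM or more are given by library. In each comparison, up to 5 called list genes with the highest and 5 with the lowest fold change are named, from those at 5 TPM or more. Promoters are those of 4 members with the largest called changes at 10 TPM or more, and that of Fzd7, chosen after its values were seen. Coordinates and promoters come from RefSeq (GRCm38.p6, the assembly behind mm10), matched by symbol: coordinates for all 52 members and promoters for 35.

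The fit was repeated with a pseudocount of 0.1, without a filter, with a 5 TPM filter, with median-ratio scaling, on the rlog table (12752 of these genes found by name, 26 names there reading as dates), on pairs of groups, with library number as a block, without the trend and robust settings, and leaving out each library. Leaving out library 1 of both e1 and parental cells was added after seeing the data.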

Additional observations from a re-analysis of the deposited data

Results flagged for a closer look

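In 14 genes, 3 of the 33 tested members and 11 of the 89 tested list genes, the escape lines moved in opposite directions against the shared parental libraries, each change called by limma, and the difference between the lines was itself called. How many of all tested genes moved in this way was not counted. The called shares of all tested genes, 73.5% in e2 and 70.6% in e1, do not give that number. Whether the count sets the Wnt genes apart therefore cannot be said. Among the members, the genes with opposite calls were Ror2, with a difference of e2 from e1 of -3.99 on the log2 scale (-1.97 ± 0.13 in e2, 2.02 ± 0.13 in e1), and Wnt10a, with 2.11 (1.06 ± 0.06 in e2, -1.05 ± 0.06 in e1). The third was Fzd1, with 1.88 (0.34 ± 0.11 in e2, -1.54 ± 0.11 in e1). Its e2 call against parental cells depended on the settings named above. Among the other pathway genes, Lgr6 differed by 3.85 (2.91 ± 0.06 in e2, -0.94 ± 0.06 in e1) and Tspan12 by 2.98 (1.42 ± 0.11 in e2, -1.56 ± 0.11 in e1). Ccnd2 differed by -3.35 (-2.46 ± 0.11 in e2, 0.89 ± 0.11 in e1) and Myc by -2.49 (-1.0 ± 0.10 in e2, 1.49 ± 0.10 in e1). Slc7a5 differed by -1.06 (-0.67 ± 0.11 in e2, 0.39 ± 0.11 in e1, a call in e1 that ended with no filter, adjusted p = 0.0512). The other 6 fall outside the rule for named genes and were added after their values were seen. Ccnd1 differed by 1.66 (0.78 ± 0.08 in e2, -0.88 ± 0.08 in e1). Rac1 differed by 0.72 (0.30 ± 0.05 in e2, -0.42 ± 0.05 in e1) and Csnk1g3 by 0.59 (0.38 ± 0.07 in e2, -0.22 ± 0.07 in e1). The call of Csnk1g3 in e1 ended without parental library 2 (-0.17) or 3 (-0.20), without e1 library 2 (-0.20) or 3 (-0.19), with no filter and in a fit of these groups alone. Daam1 differed by -0.87 (-0.42 ± 0.07 in e2, 0.44 ± 0.07 in e1) and Smarca4 by -0.73 (-0.34 ± 0.08 in e2, 0.39 ± 0.08 in e1). Mapk8 differed by -0.84 (-0.56 ± 0.08 in e2, 0.28 ± 0.08 in e1), and its call in e1 ended with no filter (adjusted p = 0.0562).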

How the results depend on the processing

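A filter of 5 TPM left 22 of 33 members, and the counts called higher against parental cells became 9 in e2 (15 before) and 7 in e1 (13 before), since fewer genes were tested. All other counts of members and list genes stayed within 1.5 times of those reported. Leaving out 1 library, or library 1 of both e1 and parental cells, gave 11 to 15 members higher and 12 to 14 lower in e2, 10 to 13 higher and 11 to 14 lower in e1, and 15 to 18 higher and 7 to 9 lower in e2 than in e1. The filter was applied anew in these fits and left 31 members, or 29 without library 1 of both groups. Lower counts can thus come from members no longer tested. Over the same fits, changes that were not called turned sign, and the cause was not tested: Axin1 for e2 against e1 (-0.06 to 0.01), Lef1 for e2 against e1 (-0.20 to 0.17) and Tcf7 for e2 against parental cells (-0.04 to 0.01). For e1 against parental cells these were Dkk2 (-0.03 to 0.16), Lrp6 (-0.04 to 0.05), Tcf7l2 (-0.01 to 0.12) and Znrf3 (-0.04 to 0.13). Single values were Dkk2 -0.02 without e1 library 2, Lef1 0.01 without e2 library 3, Lrp6 -0.01 without parental library 2, and Lrp6 -0.02 and Znrf3 -0.03 without library 1 of both groups. Camk2g for e2 against parental cells, at 0 as fitted, was -0.09 with median-ratio scaling, -0.08 in the rlog table and -0.02 to 0.02 with libraries left out. Of the fold changes called as reported, a pseudocount of 0.1 moved 30 in 14 members by over 1.5 times, all of them to larger sizes. The rlog table moved 17 called changes in 12 members by as much. Changes that were not called are left out of these counts. With the replicate block the counts of members stayed at 15 higher and 14 lower in e2, 13 and 14 in e1, and 18 and 9 between the lines, and the call of Csnk1g3 in e1 was not made (adjusted p = 0.0535). Deviations of libraries with the same number correlated at -0.13 to 0.05, so the numbers are not known to pair the libraries. Depth is not in these files, which limits what can be said of genes near 0.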

Other observations

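Some Wnt genes are close neighbours on a chromosome (RefSeq, GRCm38.p6), and their levels are given here as values. Wnt6 and Wnt10a lie 6.7 kb apart on chromosome 1. Wnt6 was higher in e1 than in parental cells (0.70 ± 0.16) while Wnt10a was lower there (-1.05 ± 0.06), and in e2 both were higher (1.43 ± 0.16 and 1.06 ± 0.06). Wnt10b and Wnt1 lie 11.7 kb apart on chromosome 15, with Wnt10b at 15.7 to 30.9 TPM in the escape libraries and Wnt1 at or below 0.112 TPM there. Wnt9a and Wnt3a lie 16.1 kb apart on chromosome 11, with Wnt9a at 4.27 to 7.28 TPM in e1 and Wnt3a listed at 0. No test of these pairs was run.

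With no filter on low values, 6 of the 19 untested members besides Lgr5 were called in some comparison. In the same fit, 9690 of all 24493 genes were called in e2, 8828 in e1 and 8728 between the lines. Those counts cover 1 comparison each and include the genes that passed the filter. The called share among genes that failed it was not counted, so the count says nothing about these members as a set. Fzd3 was higher in e1 than in parental cells (0.46 ± 0.05) and Fzd10 higher in e2 than in parental cells (0.23 ± 0.02), both below 1 TPM throughout. The others, Sfrp1, Sfrp2, Sfrp4 and Wnt2, also stayed below 1 TPM in every library.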
